A study of Mus musculus with 94 samples.

Results

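The genes described here encode the protein subunits of the cytoplasmic ribosome. They were chosen by symbol alone: every mouse symbol made of Rpl or Rps and a number, with or without the suffix of a paralog, together with Rplp0, Rplp1, Rplp2 and Rpsa, and without pseudogenes. The rule took 89 of the 49080 genes in the table, and the RefSeq gene table for GRCm38.p6 placed them on 19 chromosomes. The median level over all tumors was at least 100 CPM (counts of the gene per M counts of the library) for 76 members, between 10 and 100 for 5, between 1 and 10 for 2 and under 1 for 6. The edgeR fits could test 88 of the 89, and Rpl10l, the paralog of Rpl10, was listed at 0 in 85 tumors and was not tested.

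A ribosome holds a single copy of most of these proteins, the Rps proteins with the ribosomal RNA of the small subunit and the Rpl proteins with those of the large subunit, so that their genes are usually expressed together and rise with cell growth. Their mRNAs start with a run of pyrimidines, the 5' terminal oligopyrimidine tract, through which mTORC1 controls their translation. Some members act outside the ribosome: free Rpl5 and Rpl11 bind Mdm2 and so stabilize p53, and the paralog gene Rps27l is itself a p53 target. In tumors the genes are known as markers of biosynthetic activity.

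The tumors grew from 4T1 cells, a mouse mammary carcinoma line, placed under the skin of female BALB/c mice, the strain from which the line came. Every mouse thus had an intact immune system of its own, and the tumor is a transplant of a cultured line and no spontaneous tumor. The labelled treatments (control, 6Gy, INDO and 6Gy + INDO) were compared in tumors taken 1, 3, 7, 15 and 23 days after irradiation: control tumors received neither agent, 6Gy tumors a single X-ray dose of 6 Gy, INDO tumors indomethacin, an inhibitor of the cyclooxygenases that make prostaglandins, at 30 mg/L in the drinking water, and 6Gy + INDO tumors both. On these 5 days the control groups held 4, 5, 5, 3 and 3 tumors, the 6Gy and INDO groups 5 tumors each, and the 6Gy + INDO groups 5, 4, 5, 5 and 5. Libraries were made from total RNA of whole tumors, so fewer cells of a type and less RNA per cell cannot be told apart.

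Over the 94 tumors the total count ran from 21.0 to 109 M counts with a median of 47.1 M, and it was uneven between treatments, with medians of 73.4 M in control, 66.6 M in 6Gy, 41.0 M in INDO and 37.5 M in 6Gy + INDO. No total fell between 51.0 and 57.2 M, and 50 tumors lay below and 44 above this gap. They are called shallow and deep here. A second difference concerned reads on 1752 olfactory and vomeronasal receptor genes, which are taken here as stray: 11 tumors had 326 to 1594 CPM there and the other 83 had 40.7 to 145. Whether any of these reads came from expression in the tumors was not tested. These 11 high-receptor tumors were 8 of the 24 6Gy + INDO tumors, 2 INDO tumors and 1 control tumor, and 10 of the 11 were shallow. The epithelial genes Krt8, Krt18 and Epcam were detected in all 94 tumors at 434 to 1310, 452 to 1722 and 185 to 757 CPM, respectively.

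The 89 genes together took between 2.35% and 6.16% of the counts of a tumor. With library sizes scaled by the trimmed mean of M-values (TMM), their summed level ran from 24444 to 73227 CPM, with a median of 39070 CPM. Between treatments and days the group means lay between 33447 CPM in the 6Gy + INDO tumors of day 7 and 55959 CPM in the 6Gy tumors of day 3. The control groups had means of 36053, 41023, 52006, 44910 and 52163 CPM on days 1, 3, 7, 15 and 23, and their tumors spread from 32239 to 72523 CPM.

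**Figure D1:**
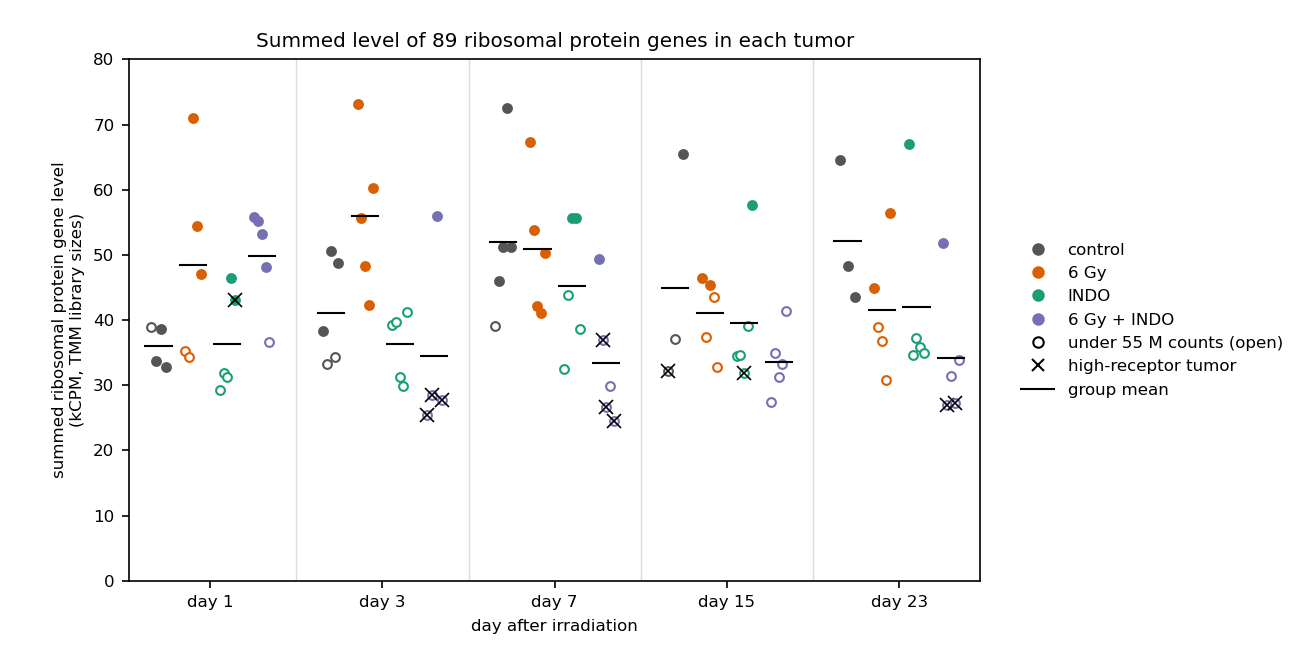
Summed level of the 89 ribosomal protein genes (vertical axis, kCPM, with TMM library sizes) in each of the 94 tumors by day after irradiation, colored by treatment. Open circles are shallow tumors, crosses mark the 11 high-receptor tumors and lines are group means, and in every group that holds both, except control on day 1, the filled circles lie above the open ones.

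The summed level moved with the depth of the library. Outside the high-receptor tumors, the 40 shallow tumors held 27478 to 43880 CPM with a median of 34806, and the 43 deep tumors 32749 to 73227 CPM with a median of 51187. The 10 shallow high-receptor tumors were lower still, at 24444 to 36912 CPM with a median of 27513, while the 1 deep high-receptor tumor, of INDO on day 1, held 43141 CPM. The same order was seen inside treatments. In 6Gy + INDO the 7 deep tumors held 48211 to 56036 CPM, the 9 shallow tumors without high receptor reads 27478 to 41343 CPM and the 8 high-receptor tumors 24444 to 36912 CPM, so that deep and shallow tumors of this treatment did not overlap. In 6Gy the 17 deep tumors held 41095 to 73227 CPM and the 8 shallow tumors 30834 to 43518 CPM. In control the 14 deep tumors reached from 32749 to 72523 CPM and overlapped the 5 shallow tumors without high receptor reads, at 33194 to 39088 CPM. What part depth, receptor reads and treatment each had in these levels was not tested in the sums, and the labels name no batch to which the depths could be tied.

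**Figure D2:**
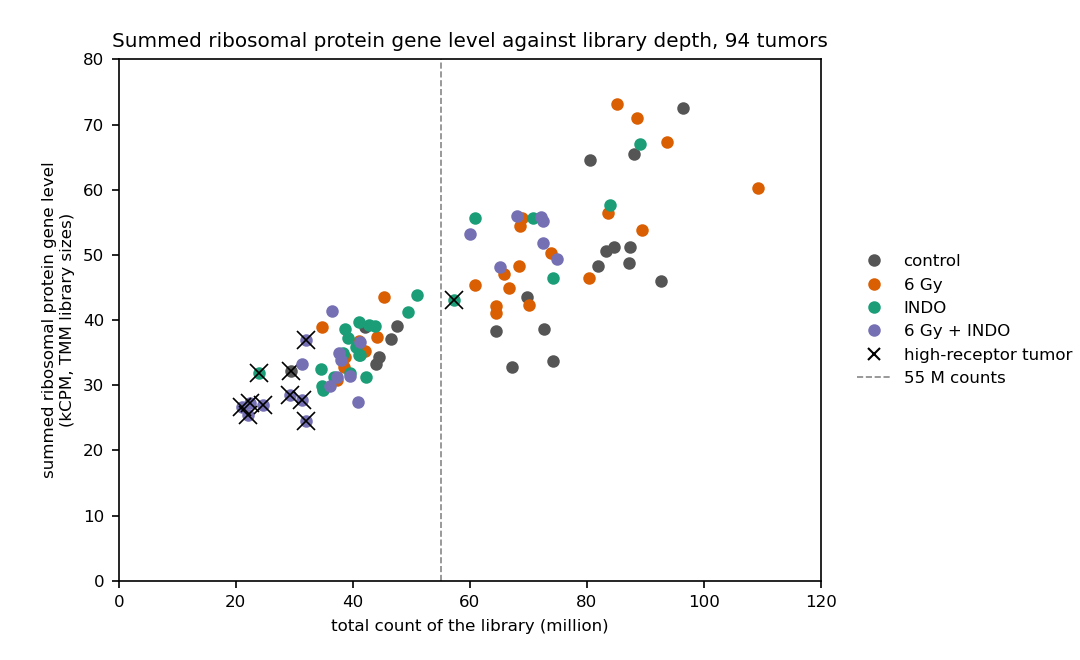
Summed level of the 89 ribosomal protein genes (vertical axis, kCPM, with TMM library sizes) against the total count of the library (horizontal axis, M counts) for 94 tumors, colored by treatment. Crosses mark the 11 high-receptor tumors, the dashed line stands at 55 M counts inside the gap between shallow and deep tumors, and the highest sums, up to 73227 CPM, belong to deep tumors.

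Related genes were summed in the same libraries. The summed level of the 78 mitochondrial ribosomal protein genes, which are nuclear genes for another ribosome, was 1275 to 2014 CPM in the 40 shallow and 1475 to 2690 CPM in the 43 deep tumors outside the high-receptor set. Pseudogenes of ribosomal proteins, 315 symbols ending in -ps, summed to 1551 to 2430 CPM in those shallow and 1388 to 2848 CPM in those deep tumors, and to 1299 to 1973 CPM in the 11 high-receptor tumors. The pseudogenes have sequences near those of the members and can take reads from them in counting. Their summed level was thus not higher in the high-receptor tumors. Single pseudogenes were not compared between these tumors and the others, and 10 of the 11 were shallow, so the sums do not separate receptor reads from depth.

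The start sites are shown for members on which the results below turn, because the pyrimidine run is the feature that these genes are known to share. Windows of 30 bases, 15 on each side of the RefSeq start (GRCm38.p6, transcribed strand, 5' to 3'), were found for 64 of the 89 members. These members had 76 annotated starts, of which the start with the longest pyrimidine run was taken for each gene, here and in all genes, and for Rpl38 and Rps27l this start lies inside the outer bounds of the gene. Capitals mark an unbroken run of at least 5 C or T over the start. Such a run was present in 21 of the 64 windows (32.8%) and in 3191 of the 27025 windows of all genes in the table (11.8%). Members with a run that are described below were
Rpl28 (chr7:4792950-4792979, plus strand): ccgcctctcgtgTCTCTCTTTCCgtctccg
Rps6 (chr4:86857353-86857382, minus strand): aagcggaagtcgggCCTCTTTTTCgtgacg
Rpl35 (chr2:39005117-39005146, minus strand): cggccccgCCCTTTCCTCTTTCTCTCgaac
Rpl38 (chr11:114668565-114668594, plus strand): agcggaagcctcgTTCTTTCCCCgttctct
and members without a run over the annotated start were
Rps16 (chr7:28350674-28350703, plus strand): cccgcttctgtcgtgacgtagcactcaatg
Rpl22l1 (chr3:28805493-28805522, plus strand): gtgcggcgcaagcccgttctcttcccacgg
Rps27l (chr9:66946071-66946100, plus strand): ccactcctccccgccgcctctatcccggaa
The windows depend on the annotated start, and a window without capitals says only that no run covers that base.

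Each treatment was then compared with the control tumors of the same day, to ask how irradiation, indomethacin and both changed these genes over time. The 3 comparisons of a day share their control tumors. A gene was called when its adjusted p over all genes tested was under 0.05, and the share of all tested genes called is given as the background. Log2 fold changes are given with their standard errors (SE). Where a count depended on it, it is also given from fits with the log2 total count, the depth class (deep or shallow) or the receptor reads of each tumor as a further term, or with libraries scaled to 14 housekeeping genes or by RLE factors (median ratios to a common reference) in place of TMM. The backgrounds belong to the reported fits and not to these alternatives.

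On day 1 most log2 fold changes of the members were positive in both irradiated groups, and a minority of members passed the test. In 6Gy tumors 6 members were called higher and 0 lower, 84 of 88 log2 fold changes were positive and their median was 0.44, beside a median of 0.06 over all 22280 genes tested, of which 15.6% were called. In 6Gy + INDO tumors 27 members were called higher and 0 lower with a median of 0.47, beside a median of 0.02 over all genes, of which 24.1% were called and 10.7% called higher. In INDO tumors 1 member was called, at a background of 14.7%, and the median was 0.03. With all 94 tumors in 1 fit, the 6Gy calls of day 1 became 0 higher and 1 lower, and without either 6Gy replicate 1 or 6Gy replicate 2, the shallow tumors of that group, they rose to 21 and 29. Without any 1 of control replicates 2 to 4 or 6Gy replicates 3 to 5 the 6Gy count was 1 to 3, which without 6Gy replicate 3 was 1 higher and 2 lower. With log2 total count as a covariate it was 43 higher and 1 lower, and with depth class 39 and 0. The count for 6Gy + INDO was 17 without control replicate 4 and 47 with log2 total count as a covariate.

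The largest rise of day 1 was that of Rpl37, a protein of the large subunit. Its level was 353, 303, 292 and 281 CPM in the control tumors and 941, 990, 936, 802 and 358 CPM in the 6Gy + INDO tumors. All treated tumors lay above the controls, the lowest of them, replicate 5, by a small margin, and the log2 fold change was 1.40 ± 0.31 (SE, adjusted p = 0.0034). In INDO tumors Rpl37 was 280, 295, 289, 790 and 652 CPM, so that 2 of 5 tumors were above all controls, and the gene was not called.

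Rpl26, whose product binds the p53 mRNA in addition to its place in the ribosome, was 82.7, 93.6, 100 and 106 CPM in control and 280, 282, 284, 221 and 131 CPM in 6Gy + INDO tumors. The groups did not overlap, with a log2 fold change of 1.33 ± 0.27 (SE, adjusted p = 0.0015). Rpl23, an Mdm2-binding protein of the large subunit, was 576 to 622 CPM in the 4 control tumors and 1405, 1359, 1351, 1143 and 745 CPM in 6Gy + INDO, again with no overlap, for a log2 fold change of 1.02 ± 0.20 (SE, adjusted p = 0.0011). The 6Gy tumors lay between, at 716, 747, 1089, 983 and 834 CPM, all above control, but the log2 fold change of 0.56 ± 0.19 (SE) was not called (adjusted p = 0.059).

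Rpl30, a small protein of the large subunit, had the largest rise among the members called in 6Gy tumors. Control tumors held 244, 214, 219 and 216 CPM, 6Gy tumors 277, 284, 444, 366 and 324 CPM and 6Gy + INDO tumors 499, 473, 472, 417 and 286 CPM. Both treated groups were above all control tumors, with log2 fold changes of 0.61 ± 0.19 (SE, adjusted p = 0.032) and 0.95 ± 0.19 (SE, adjusted p = 0.0012). Rps6, the substrate of the S6 kinases downstream of mTORC1, was 723, 644, 680 and 655 CPM in control and 730, 726, 1077, 995 and 959 CPM in 6Gy tumors. It was called in 6Gy (0.42 ± 0.11, adjusted p = 0.015) and not in 6Gy + INDO (0.18 ± 0.11, adjusted p = 0.25), where the tumors held 706 to 827 CPM. Rpl4 (0.29), Rpl7 (0.45) and Rpl23a (0.49) were also called in 6Gy.

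The member called in INDO tumors of day 1 was Rpl28 (0.47 ± 0.15, adjusted p = 0.039), a protein of the large subunit. Its tumors held 389, 334, 326, 400 and 353 CPM against 339, 253, 253 and 224 CPM in control, so that control replicate 1 overlapped the treated range. Without the high-receptor tumor of this group the call was lost. Among the remaining members called in 6Gy + INDO, Rps21, Rps29 and Rps28, singled out after their values were seen, had log2 fold changes of 1.35, 1.13 and 1.12, and Rps27, Rpl38 and Rpl10, named by the rule, of 1.01, 0.81 and 0.49.

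On day 3 members were called about as often as all genes in 6Gy tumors (7.95%) and less often in 6Gy + INDO tumors (10.2%). The few called members were mostly higher in 6Gy and mostly lower in 6Gy + INDO, and no background by direction is given for this day. In 6Gy tumors 5 members were called higher and 2 lower with a median log2 fold change of 0.42 and 81 of 88 positive, beside a median of -0.01 over all 21799 genes, of which 7.73% were called. In 6Gy + INDO tumors 1 was called higher and 8 lower with a median of -0.17, at a background of 19.5%. In INDO tumors 1 was called, Rps4l, at a background of 6.35%, with a median of -0.17. Of the 4 6Gy + INDO tumors of day 3, replicates 1, 2 and 4 were high-receptor tumors. With these left out, 1 tumor remained in the group, the spread came from the other groups, and the count of 0 called members in 6Gy + INDO on day 3 says nothing about stability. Without replicate 3, the 1 deep tumor of the group, 47 were called. The count for 6Gy was 25 with DESeq2, and it became 21 higher and 2 lower with scaling to 14 housekeeping genes, 10 and 2 with RLE factors, and 0 and 2 with depth class as a term. With housekeeping scaling 8 were higher and 4 lower in 6Gy + INDO.

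Rps27l, the p53 target, was among the 5 members higher in 6Gy. It was 35.4, 39.2, 53.9, 44.0 and 57.5 CPM in control and 108, 71.7, 71.0, 62.7 and 98.5 CPM in 6Gy tumors, with no overlap (0.84 ± 0.22, adjusted p = 0.028). All of these 6Gy tumors were deep, while control replicates 2 and 4 were shallow, and the call was not made with depth class as a term. Over the 5 days Rps27l had medians of 52.0 CPM in deep and 41.6 CPM in shallow control tumors, and of 65.1 and 31.5 CPM in 6Gy. Whether p53 had a part was not tested. INDO tumors held 19.4 to 37.7 CPM and 6Gy + INDO tumors 36.2, 50.5, 71.6 and 37.5 CPM, and neither group was called. Rpl35, a protein near the exit of the nascent chain, was 290, 231, 398, 252 and 406 CPM in control and 846, 549, 457, 377 and 629 CPM in 6Gy, where replicate 4 overlapped the controls (0.85 ± 0.23, adjusted p = 0.030). The other members higher in 6Gy were Rps12, Rps24 and Rpl19, at 0.70, 0.66 and 0.54.

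On day 7 most log2 fold changes of the members were negative in 6Gy + INDO tumors, though not all of these passed the test. There 39 members were called lower and 2 higher, 85 of 88 log2 fold changes were negative and their median was -0.56, beside a median of 0.03 over all 21875 genes, of which 46.1% were called and 21.2% called lower. In INDO tumors 6 members were called lower and 0 higher with a median of -0.12 (background 24.3%), and in 6Gy tumors 2 lower and 0 higher with a median of -0.05 (background 16.0%). The 2 in 6Gy were Rps4l (-1.80) and Rpl28 (-0.39). Of the 5 6Gy + INDO tumors of this day, replicates 2, 3 and 5 were high-receptor tumors. Without these 3 the calls in 6Gy + INDO were 0 higher and 5 lower, with receptor reads as a covariate 0 and 1, with log2 total count as a covariate 2 and 1, and with housekeeping scaling 3 and 15. In INDO the calls turned to 6 higher and 2 lower with housekeeping scaling, 21 and 1 with log2 total count as a covariate and 5 and 2 with depth class. The count for 6Gy + INDO was 26 without control replicate 4 and 72 without 6Gy + INDO replicate 1, the highest tumor of its group.

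Rpl3, an essential protein next to the peptidyl transferase center, was lower in both INDO groups of day 7. Control tumors held 790, 972, 1067, 1557 and 998 CPM, INDO tumors 686, 633, 738, 714 and 768 CPM and 6Gy + INDO tumors 643, 621, 458, 582 and 337 CPM. Neither treated group overlapped control, and the log2 fold changes were -0.54 ± 0.16 (SE, adjusted p = 0.024) and -0.94 ± 0.16 (SE, adjusted p = 0.00034). The 6Gy tumors, at 820 to 1137 CPM, lay among the controls. Depth was uneven between these groups. Control replicate 1 was shallow and the other controls deep, while 6Gy + INDO replicate 1 was deep and the other tumors of its group shallow. In INDO replicates 3 and 4 were deep.

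Rplp0, the base of the stalk that recruits elongation factors, was 925, 1241, 1409, 2174 and 1451 CPM in control and 1111, 820, 451, 752 and 445 CPM in 6Gy + INDO on day 7. Replicate 1 of the treated group overlapped control, and the log2 fold change was -0.92 ± 0.24 (SE, adjusted p = 0.0050). Rpl22l1, the paralog of Rpl22, was 52.6, 81.6, 84.0, 153 and 80.7 CPM in control and 70.1, 33.9, 28.8, 34.1 and 17.2 CPM in 6Gy + INDO, with the same tumor inside the control range (-1.21 ± 0.34, adjusted p = 0.0089). Rps19, the small subunit protein mutated in Diamond-Blackfan anemia, fell from 386, 411, 453, 620 and 449 CPM to 379, 306, 203, 292 and 217 CPM without overlap (-0.65 ± 0.18, adjusted p = 0.0082).

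Further members of known role called lower in 6Gy + INDO on day 7 were Rps14 (-0.89), Rps3 (-0.76), Rpl10 (-0.70), Rpsa (-0.61), Rpl11 (-0.58), Rpl41 (-0.53) and Rps6 (-0.45). The largest negative value was that of Rpl3l, a paralog of Rpl3 known from striated muscle, at 0.159, 3.55, 0.946, 8.74 and 0.132 CPM in control and 0.438, 0.395, 0.0452, 0.569 and 0.0875 CPM in 6Gy + INDO (-2.98 ± 1.09, adjusted p = 0.032). The groups overlapped, and 2 of the 5 control tumors carried most of the control level. Summed levels of 14 skeletal muscle genes in the same groups ran from 33.4 to 12267 CPM in control and from 46.0 to 1539 CPM in 6Gy + INDO, and their part in the Rpl3l result was not tested.

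No member was called by edgeR on day 15 or 23. On day 15 the unadjusted p was under 0.05 for 0, 1 and 27 members in 6Gy, INDO and 6Gy + INDO, and DESeq2 called 0, 0 and 4. The backgrounds were 0%, 0% and 1.33% of 21202 genes and the medians -0.15, -0.18 and -0.41. On day 23 the unadjusted p was under 0.05 for 7, 5 and 40 members, DESeq2 called 0, 0 and 5, the backgrounds were 0%, 0% and 0.00473% of 21134 genes and the medians -0.30, -0.29 and -0.55. The control groups of both days held 3 tumors each, and with all 94 tumors in 1 fit the day 23 comparison of 6Gy + INDO had 1 member called higher and 27 lower. The share of all genes called in that fit is not given here, and the background of 0.00473% does not apply to it.

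**Figure D3:**
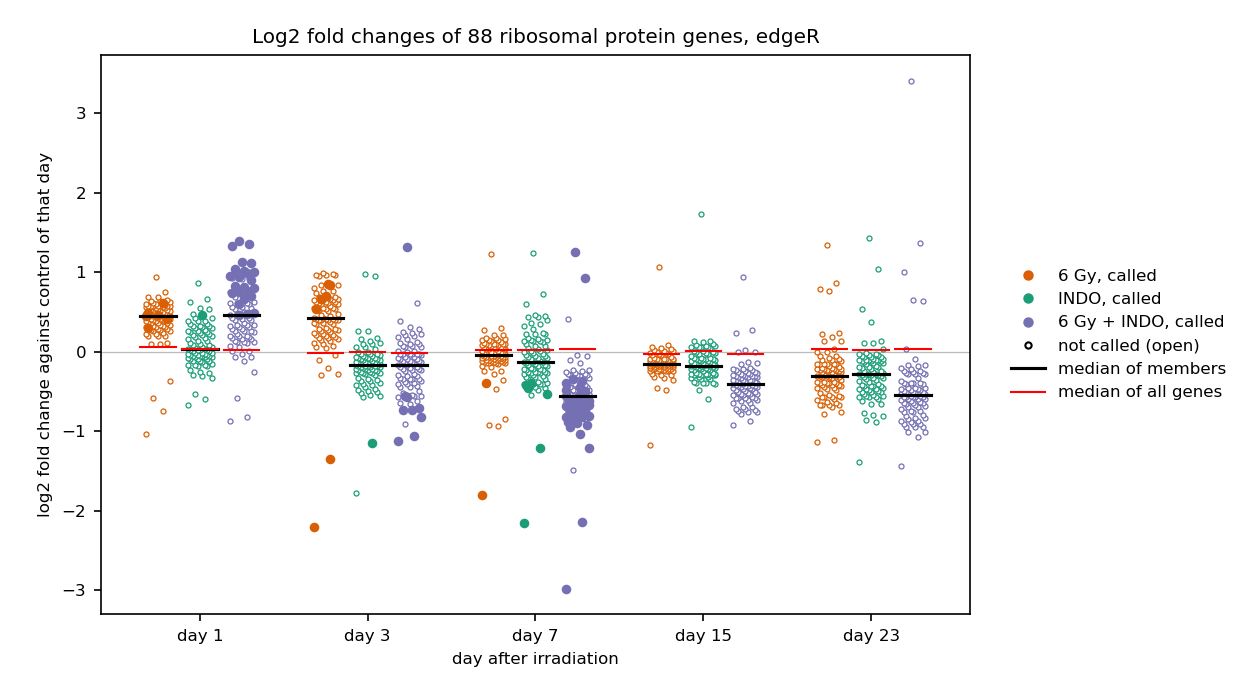
Log2 fold change of each of the 88 tested ribosomal protein genes against the control tumors of the same day (vertical axis) for 6Gy, INDO and 6Gy + INDO on 5 days, with filled points for called genes, a black line at the median of the members and a red line at the median of all genes. The 6Gy + INDO median lies at 0.47 on day 1 and at -0.56 on day 7, and on day 7 the calls in that group fell from 41 to 5 without the high-receptor tumors.

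Whether an effect differed between days was tested in 1 fit of all 94 tumors. The 6Gy + INDO effect differed between days for 45 members, at a background of 33.6%, the 6Gy effect for 0 (background 3.8%, unadjusted p under 0.05 for 33, DESeq2 8) and the INDO effect for 0 (background 2.66%, unadjusted 0, DESeq2 0). Without the high-receptor tumors the count was 17. Within a treatment, day 23 was also set against day 1. In control tumors 18 members were higher and 0 lower on day 23 with a median of 0.54 (background 21.6% called and 11.7% called higher), among them Rpl22 at 1.07 and Rpl3 at 0.99. In 6Gy + INDO tumors 1 was higher and 32 lower with a median of -0.53 (background 30.2% called and 9.04% called lower), among them Rpl37 at -1.10 and Rplp0 at -0.95, and the count was 1 without the high-receptor tumors. In 6Gy tumors 0 were higher and 3 lower (background 19.7%), Rps27l, Rpl18 and Rps2, and in INDO tumors 7 were higher and 2 lower (background 21.1%), or 6 and 3 with housekeeping scaling or RLE factors.

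Averaged over the 5 days, with each day weighed alike, most calls among the members were in the INDO groups, as were most calls over all genes. The shares of tested members called were 3.41%, 25.0% and 54.5% in 6Gy, INDO and 6Gy + INDO. The shares of all genes were 19.8%, 34.2% and 52.9%, so the members were not called more often than other genes in 6Gy or INDO, and about as often in 6Gy + INDO. In 6Gy 1 member was called higher and 2 lower with a median of 0.09, beside a median of 0.03 over all 29395 genes, of which 19.8% were called, and this became 26 and 2 with log2 total count as a covariate, 4 and 3 with depth class, 8 and 2 with housekeeping scaling and 2 and 2 with RLE factors. In INDO 3 were higher and 19 lower with a median of -0.17 (all genes 0.07, background 34.2% called and 17.4% called lower), a direction that turned to 15 higher and 3 lower with housekeeping scaling and to 31 higher and 2 lower with log2 total count as a covariate. In 6Gy + INDO 3 were higher and 45 lower with a median of -0.27 (all genes 0.19, background 52.9% called and 23.2% called lower), which became 17 and 17 with housekeeping scaling, 36 and 7 with log2 total count as a covariate, and 3 and 17 without the high-receptor tumors. Housekeeping scaling moved the median of all genes by -0.12 to 0.38 on the log2 scale over the 25 comparisons that give a fold change, and by over 0.1 in 17 of them.

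The treated groups were also compared with each other, without the control tumors. Against 6Gy alone, 6Gy + INDO had 1 member higher and 57 lower with a median of -0.37 (all genes 0.19, background 45.8% called and 19.9% called lower), led by Rpl22l1 at -0.82, Rpl27 at -0.78 and Rps3a2 at -0.73, and this became 17 higher and 13 lower with log2 total count as a covariate, 3 and 17 without the high-receptor tumors and 7 and 34 with housekeeping scaling. Against INDO alone, 6Gy + INDO had 0 higher and 7 lower with a median of -0.10 (background 10.7%), with Rps3a2 at -0.49, Rps20 at -0.34 and Rps4x at -0.30. None of these 7 calls was made without the high-receptor tumors. In the interaction of 6Gy and INDO over the 5 days 2 members were called (background 7.58%), Rps16 (0.91 ± 0.28, adjusted p = 0.033) and Rps4l (0.87 ± 0.22, adjusted p = 0.0064), and with housekeeping scaling 2 were higher and 4 lower.

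**Figure D4:**
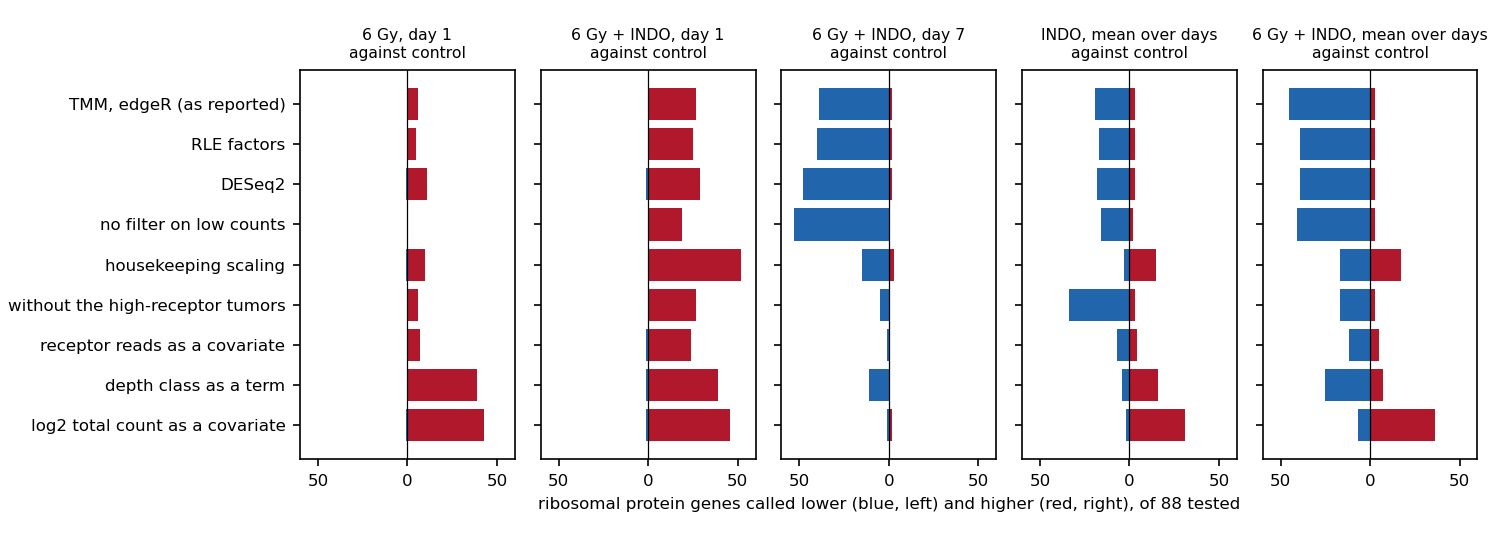
Number of ribosomal protein genes called higher (red, to the right) and lower (blue, to the left) of 88 tested in 5 comparisons with control, under the reported fit and 8 alternatives. The 6Gy + INDO calls of day 1 stay almost all on the higher side, while those averaged over days move from 3 higher and 45 lower to 36 higher and 7 lower with log2 total count as a covariate.

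Grouped by role, the members of the stalk were all lower over days in 6Gy + INDO by their fold changes, and 2 of 3 passed the test: Rplp0 (-0.54 ± 0.12, adjusted p = 0.00020) and Rplp1 (-0.33 ± 0.14, adjusted p = 0.044) but not Rplp2 (-0.21 ± 0.17, adjusted p = 0.30), and with log2 total count as a covariate Rplp1 turned to 0.24. Of the pair that binds Mdm2 as part of the 5S particle, Rpl5 was called lower in INDO (-0.51 ± 0.15, adjusted p = 0.0076) and in 6Gy + INDO (-0.48 ± 0.16, adjusted p = 0.0071), and Rpl11 in 6Gy + INDO (-0.32 ± 0.10, adjusted p = 0.0049), while in INDO it was -0.22 (adjusted p = 0.069). Both Rpl5 and Rpl11 turned positive in 6Gy + INDO with log2 total count as a covariate, at 0.17 and 0.064.

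Among small subunit proteins, Rps3, which lines the mRNA entry channel and also acts in DNA repair, was called lower in INDO (-0.35) and 6Gy + INDO (-0.49), and so were Rpsa, the laminin receptor precursor (-0.26 and -0.39), Rps6 (-0.17 and -0.32) and Rps4x (-0.36 and -0.66). Rps6 in INDO turned to 0.015 with housekeeping scaling. Rps14 and Rps19 were called in 6Gy + INDO and in neither other average, at -0.45 and -0.39, where Rps14 turned to 0.11 with log2 total count as a covariate, and Rps27a, which is made as a fusion with ubiquitin, was -0.26 and not called. On the large subunit, Rpl3 had the smallest adjusted p in 6Gy + INDO (-0.72 ± 0.10, adjusted p = 9.9e-09) and was also lower in INDO (-0.44 ± 0.10, adjusted p = 0.00029). Rpl10 (-0.43) and Rpl41 (-0.33) were called lower in 6Gy + INDO. Rpl13a, Rpl23, Rpl26 and Rpl38 were called in none of the 3 averages, with values of -0.25, 0.07, 0.11 and -0.04 in 6Gy + INDO.

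Paralogs were compared with their parent members. Rpl22l1 ran at 33.2, 66.3 and 183 CPM (lowest, median and highest of 20 tumors) in control and at 13.0, 35.0 and 82.6 CPM in the 24 6Gy + INDO tumors. The ranges overlapped, but the medians were far apart, and the gene was called lower over days in INDO (-0.52 ± 0.18, adjusted p = 0.020) and 6Gy + INDO (-0.91 ± 0.18, adjusted p = 3.5e-05). Its parent Rpl22 was called in neither, at -0.19 and -0.18, and the difference between paralog and parent was not tested. In INDO the value of Rpl22l1 was 0.019 with log2 total count as a covariate. Rps27l was called in no average over days, at 0.22, -0.29 and -0.17 in 6Gy, INDO and 6Gy + INDO, nor was Rps27. Rpl7l1 and Rpl7 were both called lower in INDO (-0.28 and -0.23) and 6Gy + INDO (-0.36 and -0.41).

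Several paralogs were rare. Rps4l, a paralog of Rps4x, ran at 0.911, 2.73 and 5.48 CPM (lowest, median and highest) in the 20 control tumors, at 0.544, 1.13 and 2.73 CPM in 25 6Gy tumors, at 0.643, 1.31 and 3.86 CPM in 25 INDO tumors and at 0.362, 1.36 and 2.46 CPM in 24 6Gy + INDO tumors. It was called lower over days in all 3 (-1.04 ± 0.16, -0.76 ± 0.16 and -0.93 ± 0.16, with adjusted p = 3e-07, 0.00011 and 1.7e-06). On day 7 control tumors held 4.62, 5.37, 3.71, 3.53 and 3.09 CPM and the 15 treated tumors between 0.362 and 2.62 CPM, and on day 3 control tumors held 2.27 to 3.20 CPM and treated tumors 0.862 to 1.77 CPM. No treated tumor of these days reached a control tumor. The sequence of Rps4l is near that of Rps4x, so its counts depend on how shared reads were assigned.

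Rpl32l was called higher over days in 6Gy, INDO and 6Gy + INDO (0.83, 0.80 and 0.81) at levels of at most 0.510 CPM, and Rps12l1 in INDO (0.59) and 6Gy + INDO (0.61) at levels of at most 3.52 CPM. On day 3 Rps12l1 was 0.553 to 1.27 CPM in control and 1.72, 3.52, 1.66 and 1.35 CPM in 6Gy + INDO (1.32 ± 0.32, adjusted p = 0.0099). Replicates 1, 2 and 4 of that 6Gy + INDO group, among them the tumor at 3.52 CPM, were high-receptor tumors. Their parents Rpl32 (-0.27) and Rps12 (-0.24) were not called in 6Gy + INDO. Rpl6l was called higher in 6Gy + INDO (0.36) and Rpl6 lower (-0.37). For Rpl32l, Rps12l1 and Rpl6l, as for Rps4l, the counts may depend on how reads shared with the parent were assigned. Rpl39l, an Rpl39 paralog known from testis, was called on day 7 in INDO, with 3.25, 0.162, 2.03, 2.95 and 3.86 CPM in control and 0.155, 1.14, 0.311, 0.624 and 0.368 CPM in INDO (-2.15 ± 0.68, adjusted p = 0.028), and 1 control tumor overlapped the treated range. Rpl39 and Rpl39l were called in no average over days, with -0.33 and -0.52 in 6Gy + INDO.

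**Figure D5:**
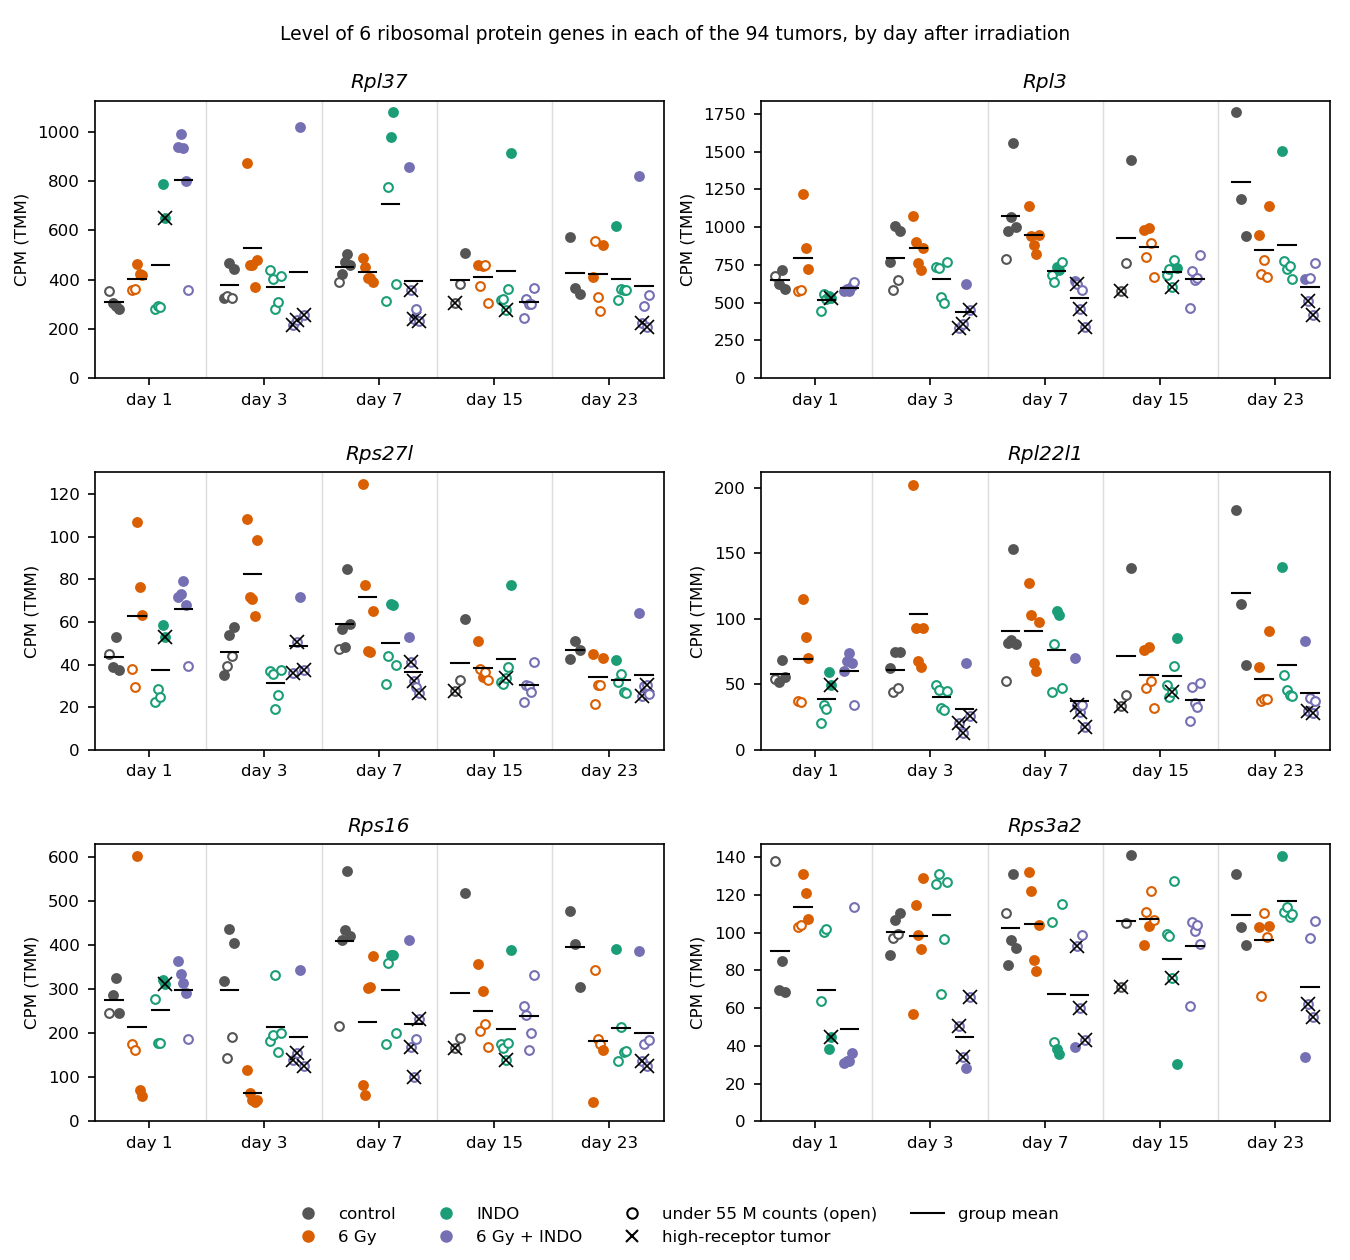
Level (vertical axis, CPM with TMM library sizes) of 6 members in each of the 94 tumors by day after irradiation, colored by treatment, with open circles for shallow tumors, crosses for high-receptor tumors and lines for group means. Rps16 shows 6Gy tumors near 50 CPM on days 1, 3, 7 and 23, down to 43.4 CPM, and Rpl37 shows deep INDO and 6Gy + INDO tumors at 617 to 1083 CPM.

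Rps16, a small subunit protein whose tail contacts the tRNA in the decoding region, had the largest fall of any member in 6Gy on day 3. There it was 319, 143, 436, 192 and 405 CPM in control and 118, 64.7, 48.2, 44.1 and 49.5 CPM in 6Gy tumors. The groups did not overlap, and the log2 fold change was -2.21 ± 0.36 (SE, adjusted p = 0.0018). The low levels were not shared by all irradiated tumors of the other days. On day 1 6Gy tumors held 175, 161, 601, 72.2 and 57.3 CPM against 245 to 325 CPM in control, on day 7 83.5, 61.0, 302, 304 and 374 CPM against 217 to 567 CPM, and on day 23 43.4, 343, 188, 176 and 162 CPM against 305 to 477 CPM. Over the 5 days Rps16 was called lower in 6Gy (-0.96 ± 0.20, adjusted p = 0.00026) and in 6Gy + INDO (-0.54 ± 0.21, adjusted p = 0.024), the latter turning to 0.0041 with log2 total count as a covariate. In INDO it was -0.49 (adjusted p = 0.056). Rps16 also differed by depth. In control, 6Gy, INDO and 6Gy + INDO its medians were 408, 83.5, 378 and 343 CPM in deep tumors. In shallow tumors they were 191, 182, 177 and 176 CPM in the same order. The 6Gy replicates 1 and 2 of day 1 and 2 to 4 of day 23 were shallow, while all control tumors of day 23 were deep.

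A mitochondrial ribosomal RNA gene was also low in several 6Gy tumors with low Rps16, though not on day 15. On day 3, mt-Rnr1 was 3250, 711, 549, 537 and 653 CPM in 6Gy replicates 1 to 5 and 4495, 1616, 1495, 2037 and 1373 CPM in the control tumors. In replicate order it was 2318, 3121, 7321, 1033 and 655 CPM in the 6Gy tumors of day 1 and 963, 1251, 3130, 2900 and 5623 CPM in those of day 7. On both of these days the 2 tumors with the lowest Rps16 were the 2 with the lowest mt-Rnr1, and the 6Gy tumors with the 10 lowest Rps16 levels were all deep libraries. On day 15 Rps16 was 356, 204, 297, 222 and 170 CPM in replicates 1 to 5 and mt-Rnr1 2519, 4186, 6316, 3650 and 4113 CPM, so that the tumor with the highest Rps16 had the lowest mt-Rnr1. On day 23 replicate 1 was lowest in both, at 43.4 and 975 CPM. Rps16-ps2, a pseudogene of Rps16, was 0.325 to 0.686 CPM in the 6Gy tumors of day 3, and 1.85 to 2.25 CPM in 6Gy replicates 3 to 5 of day 7. What part the removal of ribosomal RNA in library preparation or any other property of these libraries had in the Rps16 levels was not tested.

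Rps3a2, a copy of the gene for the small subunit protein Rps3a, was low in most deep tumors that had received INDO. On day 1 it was 138, 69.5, 85.0 and 68.4 CPM in control and 30.8, 31.8, 31.8, 36.4 and 114 CPM in 6Gy + INDO, where replicate 5, the shallow tumor, stood apart from the other 4. On day 3 it was 88.2 to 111 CPM in control and 50.6, 34.1, 28.2 and 66.0 CPM in 6Gy + INDO, without overlap (-1.13 ± 0.26, adjusted p = 0.0069). Over days it was called lower in 6Gy + INDO (-0.69 ± 0.15, adjusted p = 7.6e-05). By depth, the 6 deep INDO tumors held 30.2 to 140 CPM with a median of 38.4 CPM, the 7 deep 6Gy + INDO tumors held 28.2 to 39.2 CPM and the 17 shallow ones 34.1 to 114 CPM, while the 14 deep and 6 shallow control tumors held 68.4 to 141 and 71.2 to 138 CPM. Rps3a1, the nearly identical gene from which it may take reads, was 1035 to 1230 CPM in the deep 6Gy + INDO tumors and 780 to 1582 CPM in the deep control tumors.

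Within the deep libraries a few small proteins stood higher with INDO. These genes were singled out after their values were seen, and no test was made. Rpl37 was 281 to 575 CPM in the 14 deep control tumors, 371 to 874 CPM in 17 deep 6Gy tumors, 617 to 1083 CPM in 6 deep INDO tumors and 802 to 1020 CPM in 7 deep 6Gy + INDO tumors. Deep tumors of both INDO groups lay above all deep controls. Rps29 was 307 to 665, 291 to 802, 555 to 1119 and 674 to 1010 CPM in the same order, and Rps21 186 to 545, 265 to 886, 440 to 707 and 530 to 732 CPM, each with some overlap. In shallow libraries Rpl37 was 306 to 390 CPM in 6 control tumors, 273 to 557 CPM in 8 6Gy tumors, 275 to 775 CPM in 19 INDO tumors and 206 to 367 CPM in 17 6Gy + INDO tumors, so that the order seen in deep libraries was not present there.

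Rpl3 and Rpl22l1 were seen by depth as well. In deep tumors Rpl3 was 587 to 1764 CPM in control, 716 to 1219 in 6Gy, 530 to 1504 in INDO and 577 to 659 in 6Gy + INDO, with medians of 987, 943, 720 and 609 CPM. In shallow tumors the medians were 664, 678, 686 and 582 CPM in the same order. Rpl22l1 had medians of 77.6, 86.0, 93.8 and 67.6 CPM in deep tumors and of 46.0, 38.1, 44.4 and 32.5 CPM in shallow tumors. Both genes were thus lowest by median in 6Gy + INDO in either depth class, and their medians were higher in deep than in shallow tumors of each treatment. Of the 17 shallow 6Gy + INDO tumors 8 were high-receptor tumors, as were 1 of the 6 shallow control and 1 of the 19 shallow INDO tumors. What part this had in the shallow medians was not tested.

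The changes were also read by the pyrimidine run. Members with a run over the annotated start had a median log2 fold change of 0.63 in 6Gy + INDO on day 1 and those without 0.33, with 8 of 21 and 13 of 42 called higher. Of all genes 10.7% were called higher there. Averaged over days in 6Gy + INDO the medians were -0.16 and -0.32, with 7 of 21 and 25 of 42 called lower, and in INDO -0.12 and -0.20. Of all genes 23.2% were called lower in the 6Gy + INDO average. The set without a run depends on the annotated start and also holds paralogs such as Rpl3l and Rpl39l. These values are a description, and the difference between the sets was not tested.

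Other genes of the translation machinery were read from the other gene lists. Beside them, the share of all genes called in 6Gy + INDO was 24.1% on day 1, 46.1% on day 7 and 52.9% over days. The share called lower there was 21.2% on day 7 and 23.2% over days. In 6Gy the share called was 15.6% on day 1 and 7.73% on day 3. Of 15 translation factors with a 5' terminal pyrimidine tract, 8 were called lower and 1 higher in 6Gy + INDO on day 7 (median -0.42) and 11 lower and 1 higher over days (median -0.31), while in 6Gy on day 1 3 were higher and 0 lower (median 0.19). Of 78 mitochondrial ribosomal protein genes, 45 were lower and 0 higher in 6Gy + INDO on day 7 (median -0.44), and 3 were higher and 2 lower there on day 1 (median 0.06). Of 26 ribosome biogenesis genes, 8 were lower and 0 higher in 6Gy + INDO on day 7 and 5 lower and 1 higher on day 1. Of 92 pseudogenes tested, 18 were called higher and 5 lower in 6Gy + INDO on day 7 (median 0.51), which as 23 calls is a smaller share than the 46.1% of all genes, and their summed level was 1378 to 1922 CPM there and 1955 to 2818 CPM in control. Of the 14 housekeeping genes used for scaling, 10 were lower and 1 higher there. Of 16 TORC1 and MYC regulators, 4 were higher and 2 lower in that comparison. Of 17 p53 targets, 4 were higher and 0 lower in 6Gy on day 1 and 1 of 16 tested was higher and 0 lower on day 3.

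Markers of other cell types were read in the same tumors, where 24.1% of all genes were called on day 1 and 46.1% on day 7. In 6Gy + INDO on day 1, 12 of 12 T cell genes, 7 of 10 macrophage genes, 6 of 8 neutrophil genes, 8 of 10 endothelial genes, 4 of 10 fibroblast genes and 10 of 10 adipocyte genes were called lower and 0 higher. On day 7 the counts were 5 of 12, 7 of 10, 6 of 10, 9 of 10, 10 of 10 and 5 of 10, with 2 of 7 B cell genes lower and 1 higher, 4 of 6 erythroid genes lower and 1 higher, 3 of 14 skeletal muscle genes lower and 4 of 10 skin genes higher. Of 12 epithelial genes, 1 was higher and 2 lower on day 1 and 3 lower on day 7. The summed level of the fibroblast genes was 6678 to 14502 CPM in control and 5632 to 7646 CPM in 6Gy + INDO on day 1, and 8665 to 16271 and 1041 to 3492 CPM on day 7. Their part in the levels of the ribosomal protein genes was not tested.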

How the data were processed

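Total RNA of 94 tumors was sequenced from stranded total RNA libraries. The submitters' processing notes name the build mm10 and, with no role for each, STAR, cutadapt and Partek 11.0.24.0328. How genes were annotated for counting, and how reads shared by near-identical genes were treated, was not given in the sources used here. From these reads the authors made the 1 deposited table of expected counts per gene and tumor, not scaled to library size, with 84.5% of values whole. These counts were rounded, genes were filtered with filterByExpr, and library sizes were scaled by TMM. Genes were tested with the quasi-likelihood test of edgeR 4.0.16 in R 4.3.3, in 1 fit per day and, for averages over days, in 1 fit over the whole series (94 tumors, each treatment and day with its own mean), with Benjamini-Hochberg adjustment over all genes tested. No replicate block was used. The SE is the log2 fold change divided by the square root of its F value. Partek's own test and the unnamed housekeeping genes of the study could not be run here.

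Groups and replicate numbers came from the sample titles. The labels name no shared litter or run, and p-values measure the spread between these tumors. No pair of tumors within a group differed by so little that they could be the same library. The members, the gene lists and the alternatives were chosen with earlier results of these data known. Named members were the paralogs and their parents, 17 members of known role, and the called members with the largest change in each comparison. The other lists held pseudogenes, mitochondrial ribosomal proteins, pyrimidine-tract translation factors, ribosome biogenesis, TORC1 and MYC regulators, p53 targets, epithelium, and T cell, B cell, macrophage, neutrophil, endothelial, fibroblast, skeletal muscle, skin, adipocyte and erythroid genes. Alternatives were RLE factors, DESeq2 1.42.0, scaling to 14 housekeeping genes, no filter, a replicate block, 1 fit for within-day comparisons, receptor reads as a covariate, and leaving out the high-receptor tumors (over 300 CPM), each tumor or each day. Log2 total count and depth class (border 55 M counts) were added after the data were seen. The fits were tested on simulated counts. Totals of 21.0 to 109 M counts limit precision mainly for members under 1 CPM. Start windows were read from RefSeq, GRCm38.p6, taking the start with the longest run where a gene had several.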

Additional observations from a re-analysis of the deposited data

Results flagged for a closer look

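Single tumors that stood far from the others of their group were looked for, by the gap to the nearest tumor over the range of the group, in the summed level of the ribosomal protein genes and in the 18 members described tumor by tumor. This gave 13 of 109 groups. A chance rate of about 1 in 20 would hold for groups of like and independent tumors. Here groups mixed deep and shallow libraries, and the members were chosen with earlier results known, so no excess over chance is read from the count. In the summed level the highest tumor stood apart in 6Gy + INDO on day 3 (56036 CPM in replicate 3, the others 25455 to 28578) and on day 23 (51814 CPM in replicate 1, the others 26950 to 33812), and in INDO on day 15 (57588 CPM in replicate 5, the others 31865 to 39052) and on day 23 (66960 CPM in replicate 1, the others 34710 to 37325). Each of these 4 tumors was the 1 deep library of its group.

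Rps16 stood apart in 6Gy on day 1 (601 CPM in replicate 3, the others 57.3 to 175), 6Gy on day 3 (118 CPM in replicate 1, the others 44.1 to 64.7), INDO on day 3 (333 CPM in replicate 3, the others 159 to 200), 6Gy + INDO on day 3 (343 CPM in replicate 3, the others 125 to 156) and 6Gy + INDO on day 23 (386 CPM in replicate 1, the others 125 to 184). Rps3a2 was 114 CPM in replicate 5 of 6Gy + INDO on day 1 and 30.8 to 36.4 CPM in the others. Rpl30 was 244 CPM in control replicate 1 of day 1 and 214 to 219 CPM in the others. Rps19 was 620 CPM in control replicate 4 of day 7 and 386 to 453 CPM in the others. Rpl3l was 4.36 CPM in 6Gy replicate 1 of day 7 and 0.303 to 1.39 CPM in the others.

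Differences between groups were tested in the fit of all 94 tumors. The 6Gy + INDO effect differed between days for 45 members. The interaction of 6Gy and INDO over days was called for 2 members, Rps16 at 0.91 and Rps4l at 0.87 on the log2 scale, where a positive value means that the change with both agents was less negative than the sum of the changes with each.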

How the results depend on the processing

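The causes of the changes below were not tested. The share of all genes called under each alternative is not given, so these counts have no background beside them. Counts are members called, with the higher and the lower in parentheses where the prevailing direction turned. With DESeq2 they were 12 (6Gy day 1), 25 (6Gy day 3), 3 (INDO day 3), 4 and 5 (6Gy + INDO days 15 and 23), 6 (6Gy, day 23 against day 1) and 8 (6Gy between days). With RLE factors 6Gy on day 3 had 12. With all 94 tumors in 1 fit 6Gy had 1 on day 1 (0 higher, 1 lower) and 1 on day 7, INDO 0 on day 1 and 2 on day 3, and 6Gy + INDO 16 on day 3 and 28 on day 23. With no filter on low counts 6Gy had 0, 4 and 1 on days 1, 3 and 7, INDO 0 on day 1, and the interaction 1.

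With housekeeping scaling the total was 11 for 6Gy on day 1, 6 for INDO on day 1, 52 for 6Gy + INDO on day 1, 23 for 6Gy on day 3, 12 for 6Gy + INDO on day 3 (8 higher, 4 lower), 1 for 6Gy on day 7, 8 for INDO on day 7 (6 and 2), 18 for 6Gy + INDO on day 7, 10 for the 6Gy average (8 and 2), 18 for the INDO average (15 and 3), 6 for the interaction (2 and 4), 5 for 6Gy day 23 against day 1 and 3 for 6Gy between days.

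With log2 total count as a covariate it was 44, 13 and 47 for 6Gy, INDO and 6Gy + INDO on day 1, 5 for 6Gy + INDO on day 3 (5 and 0), 4, 22 (21 and 1) and 3 (2 and 1) on day 7, 28 (26 and 2), 33 (31 and 2) and 43 (36 and 7) for the averages, 30 (17 and 13) for 6Gy + INDO against 6Gy, 5 (2 and 3) for the interaction, 28, 8, 22 and 4 for day 23 against day 1 in control, 6Gy, INDO and 6Gy + INDO, and 4 and 18 for 6Gy and 6Gy + INDO between days. With depth class as a term it was 39 and 9 for 6Gy and INDO on day 1, 2 for 6Gy on day 3 (0 and 2), 4, 7 (5 and 2) and 11 on day 7, 7 (4 and 3) and 20 (16 and 4) for the 6Gy and INDO averages, 18 for 6Gy + INDO against INDO, 14 (2 and 12) for the interaction, 22 and 4 for day 23 against day 1 in INDO and 6Gy + INDO, and 3 and 20 for 6Gy and 6Gy + INDO between days.

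With receptor reads as a covariate it was 34 and 0 for 6Gy and 6Gy + INDO on day 3, 1 and 1 on day 7, 7 for 6Gy + INDO on day 15, 11 and 17 for the INDO and 6Gy + INDO averages, 25 against 6Gy, 0 against INDO, 7 and 1 for day 23 against day 1 in 6Gy and 6Gy + INDO, and 5 and 21 between days. Without the high-receptor tumors it was 0 for INDO on day 1, 13 and 0 for 6Gy and 6Gy + INDO on day 3 (1 tumor left in the latter), 5 and 1 for 6Gy + INDO on days 7 and 15, 37 and 20 for the INDO and 6Gy + INDO averages, 20 against 6Gy, 0 against INDO, 7 and 1 for day 23 against day 1, and 1 and 17 between days.

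Over 132 pairs of tumors of a day with the same replicate number the median correlation of their deviations was 0.071, and over 528 pairs with different numbers it was -0.018. The correlation was over 0.1 in 60 of the 132 pairs and in 189 of the 528. These values do not show whether tumors of the same number shared more than that number. With the replicate block the counts were 2 (6Gy day 1), 2 (INDO day 3), 1 (6Gy day 7), 3 (INDO day 7), and 7, 0 and 0 for day 23 against day 1 in control, 6Gy and 6Gy + INDO.

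Leaving out day 1 gave 20 for 6Gy + INDO against INDO. Leaving out day 3 gave 14 for the INDO average, 37 against 6Gy, 0 against INDO and 0 for the interaction, leaving out day 7 gave 6, 26 for the 6Gy + INDO average, 2 against INDO and 1, leaving out day 15 gave 6 (2 and 4) for the interaction, and leaving out day 23 gave 6 (4 and 2) for the 6Gy average, 0 against INDO and 1 for the interaction.

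Leaving out single tumors gave 1 to 29, 0 to 1 and 17 to 36 for 6Gy, INDO and 6Gy + INDO on day 1, 2 to 22, 1 to 3 and 4 to 47 on day 3, 1 to 3, 2 to 12 and 26 to 72 on day 7, 0, 0 and 0 to 1 on day 15, and 0, 0 and 0 to 5 on day 23. For 6Gy on day 1 the count was 1 to 3 without control replicates 2 to 4 or 6Gy replicates 3 to 5. Without 6Gy replicate 3 these were 1 higher and 2 lower. For INDO on day 1 it was 1 lower without INDO replicate 4 and 0 without control replicates 2 to 4 or INDO replicates 1 or 5. For 6Gy + INDO on day 1 it was 17 without control replicate 4. On day 3 it was 2 or 3 for 6Gy without control replicates 2 or 4 or 6Gy replicates 1, 2 or 5 (0 or 1 higher, 2 lower), 18 without 6Gy replicate 4 and 22 without 6Gy + INDO replicate 3, 2 or 3 for INDO without control replicate 2, 6Gy replicate 5, INDO replicate 3 or 6Gy + INDO replicate 2, and 5 and 4 for 6Gy + INDO without its replicates 1 and 2. On day 7 it was 1 for 6Gy without control replicates 3 to 5, any 6Gy tumor or INDO replicates 3 or 4, and for INDO 12 without control replicate 1, 10 without 6Gy + INDO replicate 2, and 2 or 3 without control replicates 4 or 5 or INDO replicates 1, 3 or 5. For 6Gy + INDO it was 1 on day 15 without control replicate 1, and on day 23 1 without 6Gy replicate 2 and 5 without INDO replicate 1.

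Of 160 calls of named members, 158 kept direction and call with DESeq2, 156 with RLE factors, 115 with housekeeping scaling, 99 with depth class, 90 without the high-receptor tumors, 75 with receptor reads as a covariate and 64 with log2 total count as a covariate. The sign turned for Rps4x in 6Gy + INDO on day 3 (0.080) and Rplp1 in the 6Gy + INDO average (0.044) with receptor reads, and for Rps6 in the INDO average (0.015) with housekeeping scaling. With log2 total count it turned for Rpl27 in 6Gy + INDO on day 7 (0.0023), for Rpl22l1 (0.019) and Rplp0 (0.037) in the INDO average, for Rpl11 (0.064), Rpl27 (0.049), Rpl5 (0.17), Rplp1 (0.24), Rps14 (0.11) and Rps16 (0.0041) in the 6Gy + INDO average, and for Rpl22 (0.027), Rpl32 (0.076), Rpl35 (0.091), Rpl39 (0.20), Rplp1 (0.040), Rps12 (0.011), Rps27a (0.012) and Rps27l (0.086) in 6Gy + INDO against 6Gy.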
